A study of Sus scrofa with 22 samples.

Results

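Cadherin transcripts of the luminal epithelium (LE), the glandular epithelium (GE) and the stroma (S) of porcine endometrium were examined on Day 12. The members were 8 cadherins chosen by name, namely CDH1, CDH2, CDH3, CDH6, CDH11, CDH13, CDH16 and CDH17, and a member was used where at least 1 of the 3 tables of read counts listed it. Of the 8, 7 were listed, among 12401 genes listed in all. The table of LE held 5 of them (CDH1, CDH11, CDH13, CDH16 and CDH17), that of GE held 6 (without CDH2 and CDH16) and that of S held 6 (without CDH2 and CDH3). CDH1, CDH11, CDH13 and CDH17 were in all 3 tables. CDH2 was not analysed here. A gene missing from a table was treated as not analysed for that cell type and never as 0.

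The 22 libraries came from cells cut out of frozen endometrium by laser capture microdissection (LCM). All 8 gilts were prepuberal crossbreds of German Landrace and Piétrain, bought from a trader, and all were given PMSG and then hCG so that they ovulated together. The 4 pregnant gilts (01, 03, 05 and 14) were inseminated with semen of a German Landrace boar, and the 4 control gilts (02, 04, 06 and 13) received only the supernatant of centrifuged semen from the same boar. The uterus was taken on Day 12 after insemination from both groups. Each gilt gave 1 LE and 1 GE library, and S libraries were analysed from gilts 01, 05 and 14 (pregnant) and 02, 04 and 13 (control). Each library was made from picogram amounts of RNA of the captured cells. Replicates are different animals.

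Cadherins are calcium-dependent adhesion proteins whose extracellular repeats bind cadherins of the neighbouring cell, while the cytoplasmic tail of the classical members binds catenins and through them the actin cytoskeleton. CDH1 (E-cadherin) is the cadherin of epithelial adherens junctions, and CDH3 (P-cadherin), CDH6 (K-cadherin) and CDH11 (OB-cadherin, known from mesenchyme) are classical or closely related members. CDH16 (kidney-specific cadherin) and CDH17 (liver-intestine cadherin) form a separate group with additional ectodomain repeats and a short tail that lacks the catenin-binding region, and CDH13 (T-cadherin) has no tail and is held in the membrane by a lipid anchor. In the uterus, adherens junctions join the cells of the luminal epithelium to which the conceptus attaches.

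In the Sscrofa11.1 annotation, CDH1 is at chr6:18075487-18155986 on the minus strand with 16 exons, and CDH3 lies 34984 bases from it at chr6:18190971-18236184. CDH16 is on the same chromosome at chr6:27589183-27599002 (minus strand, 18 exons) and CDH17 is at chr4:42508852-42597888 (plus strand, 18 exons). The other listed members are CDH11 at chr6:25782746-25933753, CDH13 at chr6:4809752-5832188 and CDH6 at chr16:17531862-17660081. The coding sequences encode 883 residues for CDH1, 888 for CDH16 and 832 for CDH17. No exon of the 7 listed members overlapped an exon of another gene. Windows of 50 bases shared with other genes were 2.45% of the exon sequence of CDH11 and 0.0% of that of the other listed members, so that reads of CDH11 could in part be shared with other genes.

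The 250 bases before the annotated start of CDH1, CDH16 and CDH17 are given because these 3 genes passed the threshold in LE, and because the E-box CACCTG is the site known for the CDH1 repressors of the SNAI and ZEB families. Capitals mark matches of CACCTG, which reads CAGGTG on the other strand.
CDH1, chr6:18155987-18156236, minus strand: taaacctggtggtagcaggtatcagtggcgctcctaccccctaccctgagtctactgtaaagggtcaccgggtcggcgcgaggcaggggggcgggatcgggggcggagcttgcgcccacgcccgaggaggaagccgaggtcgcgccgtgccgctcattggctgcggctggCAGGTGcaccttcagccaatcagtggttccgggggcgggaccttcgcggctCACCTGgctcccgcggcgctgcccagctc
CDH16, chr6:27599003-27599252, minus strand: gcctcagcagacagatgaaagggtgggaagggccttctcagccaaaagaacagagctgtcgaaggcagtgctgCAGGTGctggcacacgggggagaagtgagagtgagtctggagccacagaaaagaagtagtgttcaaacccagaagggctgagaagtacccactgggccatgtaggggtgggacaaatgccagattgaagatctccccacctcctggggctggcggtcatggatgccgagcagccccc
CDH17, chr4:42508602-42508851, plus strand: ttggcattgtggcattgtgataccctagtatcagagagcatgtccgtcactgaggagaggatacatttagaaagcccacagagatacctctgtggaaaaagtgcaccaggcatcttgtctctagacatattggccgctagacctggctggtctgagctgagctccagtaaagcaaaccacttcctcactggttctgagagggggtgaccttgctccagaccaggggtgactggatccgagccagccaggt
The CDH1 window held 2 matches, starting at positions -80 and -29 counted from the gene start, the CDH16 window held 1 at -177, and the CDH17 window held 0. Over both strands, 19.4% of the 20653 windows of this length in the annotation held the motif. TTTATG (a CDX-type motif, in 8.57% of all windows) was searched in the same way, with 0 matches in any of the 3 sequences. GC content was 69.6% for CDH1, 58.0% for CDH16 and 52.4% for CDH17, against a median of 57.2% over all windows. These matches are descriptions of letters and not of bound sites.

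The library labels were first set against marker genes, given as CPM (read counts scaled to library size) summed over a list. The 12 epithelial markers were listed in all tables and none was at 0. They summed to 2670 to 3342 CPM in control LE and 2440 to 3197 in pregnant LE. In the libraries labelled S the sums were 2753 to 2942 in the control and 1219 to 2889 in the pregnant gilts, so that the control S libraries held as much epithelial marker RNA as LE. The 10 fibroblast markers summed to 5532 to 9696 CPM in control S, below the 12998 to 19110 of control LE, and to 9506 to 68979 in pregnant S. The name S is therefore used below only as the label of these libraries. Of the glandular markers only 1, PROM1, was in all tables, and its level in GE (3.89 to 24.2 CPM) overlapped that in LE (4.67 to 13.4 CPM). FOXA2, another glandular marker, had 16.9 to 78.1 CPM in control GE and 45.4 to 108.5 CPM in pregnant GE. It was not listed in LE, so that its level there was not analysed. Ciliated cell markers were higher in GE (66.7 to 311 CPM) than in LE (17 to 64 CPM). Total counts ranged from 893912 (pregnant LE of gilt 01) to 4020796. Libraries that stood apart were control GE of gilt 02, with 897 CPM of epithelial, 52700 of fibroblast and 9913 of smooth muscle and pericyte markers, pregnant S of gilt 01, with 1219 CPM of epithelial and 68979 of fibroblast markers, and pregnant LE of gilt 01, with 6229 CPM of smooth muscle and pericyte markers. In such samples, fewer cells of a type and less RNA per cell cannot be told apart.

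The first comparison asked which cadherins differed between pregnant and control LE. CDH17 was lower, and CDH1 and CDH16 were higher in the pregnant gilts, each with no overlap between the groups. Of the 5 listed members, 3 passed the threshold (false discovery rate, FDR, below 0.01 in edgeR's quasi-likelihood test with Benjamini-Hochberg adjustment), where 10.0% of all 11415 listed genes did so (6.33% higher and 3.71% lower). With library size alone in place of TMM normalization the median log2 FC of all genes moved from 0.01 to -0.14, and the called genes split into 582 higher and 570 lower, against 722 and 424. Groups that do not overlap were found for 26.7% of all genes. Over the 5 members the median log2 FC was 0.18, against 0.01 for all genes.

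**Figure D1:**
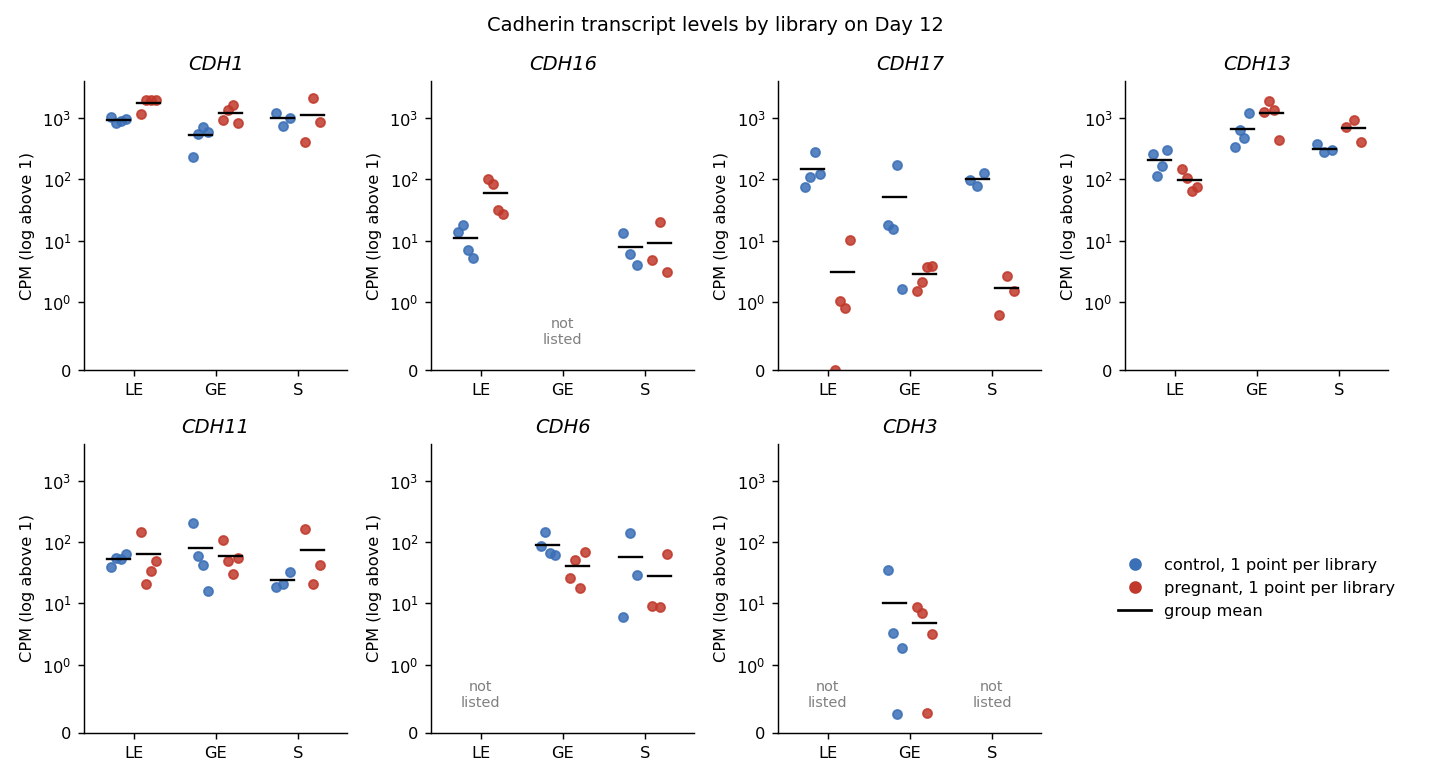
Level of each listed cadherin in every library, in CPM on an axis that is linear below 1 and logarithmic above it, for the LE, GE and S labels; points are libraries of control (blue) and pregnant (red) gilts and lines are group means. CDH17 lies at 74.9 to 276 CPM in control LE and at 0.0 to 10.3 CPM in pregnant LE, while CDH1 and CDH16 lie higher in the pregnant than in the control LE.

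CDH1 was at 1023, 840, 891 and 950.0 CPM in the LE of control gilts 02, 04, 06 and 13, and at 1170, 1977, 1962 and 1969 CPM in the LE of pregnant gilts 01, 03, 05 and 14. The lowest pregnant library, that of gilt 01, was above the highest control library, and the other 3 pregnant libraries lay close together. The means were 926 ± 78.6 and 1770 ± 400 CPM (SD, n = 4 each), and the log2 FC was 0.93 with an SE of 0.21 (FDR = 0.00978, a 1.91-fold rise). The call was at the edge of the threshold. It was kept without gilt 01 and lost without any one of gilts 02, 03, 04, 05, 06, 13 or 14, with FDRs between 0.00118 and 0.0335 and log2 FCs between 0.88 and 1.09. With library size alone the log2 FC was 0.79 (FDR = 0.0204).

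CDH16 rose from a low level. Its control libraries had 13.7, 17.9, 6.96 and 5.29 CPM (gilts 02, 04, 06 and 13) and its pregnant libraries 103, 82.6, 31.1 and 27.2 CPM (gilts 01, 03, 05 and 14). The groups did not overlap, although the pregnant gilts fell into a higher pair (01 and 03) and a lower pair (05 and 14). The log2 FC was 2.43 with an SE of 0.52 (FDR = 0.00879), a 5.4-fold rise from 11 ± 5.88 to 60.9 ± 37.6 CPM (SD, n = 4 each). Without gilt 14 the call was kept, and it was lost without any one of gilts 01, 02, 03, 04, 05, 06 or 13 (FDR 0.00295 to 0.0325, log2 FC 2.08 to 2.82). With library size alone the log2 FC was 2.28 (FDR = 0.0105).

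CDH17 changed in the opposite direction. In the control LE it stood at 74.9, 108, 276 and 122 CPM for gilts 02, 04, 06 and 13. The pregnant LE had 0.0 CPM in gilt 01, 1.04 in gilt 03, 0.907 in gilt 05 and 10.3 in gilt 14, between 0 and 33 reads a library. A count of 3 corresponds to 3.50 CPM in the shallow library of gilt 01, which is the level that its count of 0 allows, and to 0.907 to 1.56 CPM in the other pregnant LE libraries. Only gilt 14 was clearly above that floor. The call (log2 FC -5.24, SE 0.76, FDR = 0.00111) was kept without each of the 8 gilts in turn, with log2 FCs from -7.41 to -4.74, the largest decrease being that without gilt 14.

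CDH13 and CDH11 did not pass the threshold in LE. CDH13 stood at 260, 114, 165 and 296 CPM in control gilts 02, 04, 06 and 13 and at 146, 104, 63.5 and 74.0 CPM in pregnant gilts 01, 03, 05 and 14. The groups overlapped between 114 and 146 CPM, and the log2 FC was -1.13 (SE 0.34, FDR = 0.0389), which would pass only at an FDR of 0.05. CDH11 had 39.5 to 63.1 CPM in the control and 20.8 to 148 CPM in the pregnant LE, with a log2 FC of 0.18 (SE 0.50, FDR = 0.83). Its highest value was that of gilt 01, the library rich in smooth muscle markers.

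Some marker genes also differed between the groups in LE, where 10.0% of all listed genes were called (6.33% higher and 3.71% lower). The leukocyte markers listed in all tables (5 of 10) summed to 152 to 266 CPM in the control and 276 to 330 CPM in the pregnant LE, but the median log2 FC of the 6 leukocyte markers listed in LE was -0.47. LAPTM5, a lysosomal protein of blood cells, was the 1 called, with a log2 FC of 1.68 (FDR = 0.000233) and means of 71.2 and 229 CPM, while PTPRC (-0.90), CSF1R (-0.79), ITGB2 (-0.49) and LCP1 (-0.45) had negative values and CD68 (0.93) a positive one, none of them called. Of the 12 epithelial markers, CLDN3 and CLDN4, claudins of tight junctions, and ELF3, an epithelial transcription factor, were called higher, and the keratins KRT7, KRT8 and KRT19 were called lower, while EPCAM was not called (log2 FC 0.74, FDR = 0.119), although it was without gilt 01 (log2 FC 0.99). The call of KRT7 was lost without gilt 02, 05 or 13, that of KRT19 was kept only without gilt 05 or 14, and that of ELF3 only without gilt 01 or 14. None of the 10 fibroblast, 8 blood endothelial or 7 smooth muscle and pericyte markers listed was called. Their part in the cadherin differences was not tested.

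The order of the cadherins within LE was compared per kilobase of exon. In the control LE, CDH1 had 217 ± 18.4 CPM per kb, followed by CDH13 (97.5 ± 39.3), CDH17 (38.6 ± 23.8), CDH11 (8.15 ± 1.51) and CDH16 (3.66 ± 1.97, SD, n = 4 each). In the pregnant LE, CDH1 stayed first with 415 ± 93.7 CPM per kb, and the order after it was CDH13 (45.3 ± 17.3), CDH16 (20.4 ± 12.6), CDH11 (9.72 ± 9.02) and CDH17 (0.815 ± 1.29). CDH17 thus moved from the third place to the last and CDH16 from the last to the third. Neighbours with overlapping SD ranges were CDH13 and CDH17 in the control, and in the pregnant LE each neighbour after CDH1, CDH17 included. The CDH13 model of 2.14 kb holds coding sequence only, and what this does to its level per length was not tested.

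Taken as a share of CDH1 in the same library, which does not depend on the normalization between libraries, CDH17 per kb was 8.32%, 14.6%, 35.2% and 14.6% of CDH1 per kb in control LE (gilts 02, 04, 06 and 13). It was 0.0%, 0.0597%, 0.0525% and 0.594% in pregnant LE (gilts 01, 03, 05 and 14). The groups did not overlap (exact permutation test, two-sided, p = 0.0286, the smallest that 4 against 4 libraries allow). That outcome was fixed by the levels above, since CDH17 was lower and CDH1 higher in pregnant LE, each without overlap. The p value therefore adds no separate support. For CDH16, the shares were 1.91%, 3.04%, 1.11% and 0.795% in the control and 12.5%, 5.96%, 2.27% and 1.97% in the pregnant LE. These overlapped, since gilt 04 of the control was above pregnant gilts 05 and 14. The means were 1.71 ± 1.0% and 5.68 ± 4.92% (SD, n = 4 each), and their difference was not significant (exact permutation test, two-sided, p = 0.114). CDH16 therefore differed between the groups as a level, and its share of CDH1 was not shown to differ.

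**Figure D2:**
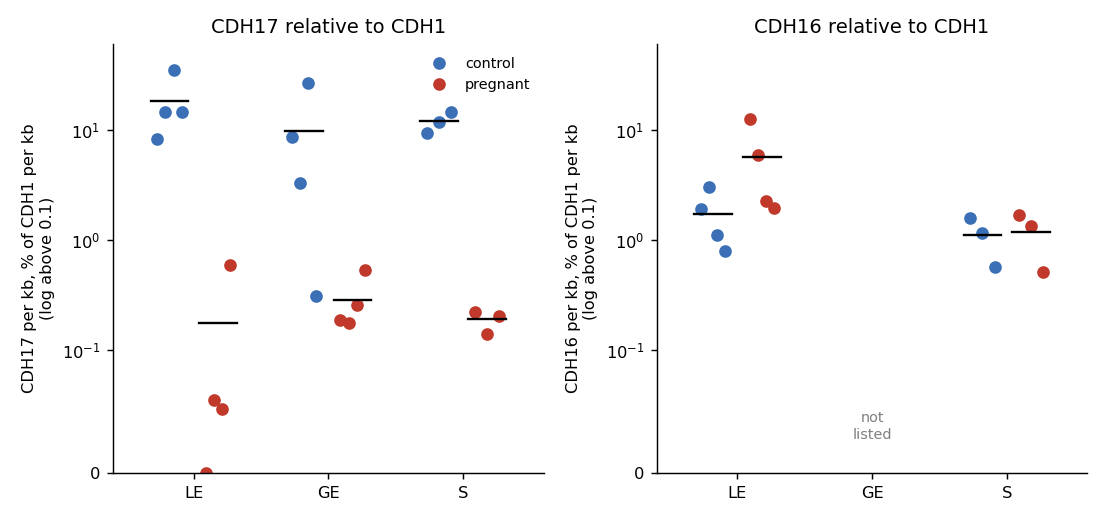
Level of CDH17 (left) and CDH16 (right) per kilobase as a percentage of CDH1 per kilobase in the same library, on an axis linear below 0.1 and logarithmic above it; points are libraries and lines group means. CDH17 lies at 8.32 to 35.2% in control LE against at most 0.594% in pregnant LE, whereas the CDH16 shares of the groups overlap in LE.

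The same comparison was made in GE, where an unadjusted p value below 0.0021 was the threshold. None of the 6 listed members passed it, where 0.694% of 11676 genes passed (81 genes, with 945 below a p value of 0.05 before adjustment). Of the members, CDH1, CDH17 and CDH6 had unadjusted p values below 0.05 in edgeR's quasi-likelihood test, and DESeq2's Wald test called 1 member, CDH17. CDH1 alone showed no overlap between the groups, against 4.92% of all genes. The median log2 FC was -0.75 over the 6 members and -0.02 over all genes.

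CDH1 in GE was at 233, 548, 718 and 588 CPM in the control (gilts 02, 04, 06 and 13) and at 921, 1349, 1651 and 828.6 CPM in the pregnant gilts (01, 03, 05 and 14). Every pregnant library was above every control library, and the lowest value was that of gilt 02, whose library was poor in epithelial markers. The log2 FC was 1.19 with an SE of 0.38 (FDR = 0.455), and 0.94 without gilt 02.

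CDH17 in GE varied widely among the controls, with 17.7 CPM in gilt 02, 15.7 in gilt 04, 169 in gilt 06 and 1.62 in gilt 13. The pregnant libraries had 1.51, 2.11, 3.77 and 3.89 CPM (gilts 01, 03, 05 and 14), based on 3 to 13 reads. Control gilt 13 lay within the range of the pregnant gilts and the other controls above it. The log2 FC was -4.14 with an SE of 1.22 (FDR = 0.425). Without gilt 13 the threshold was passed (log2 FC -4.54, FDR = 0.196), and without gilt 06 the log2 FC was -2.0. As a share of CDH1 per kb, CDH17 was 8.64%, 3.26%, 26.7% and 0.313% in the control and between 0.178% and 0.533% in the pregnant GE (exact permutation test, two-sided, p = 0.0571, where 0.0286 is the smallest possible).

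Of the other members in GE, CDH6 had 87.3, 147, 67.5 and 61.9 CPM in the control and 26.3, 51.3, 18 and 67.9 CPM in the pregnant gilts. Only pregnant gilt 14 reached the control range, and the log2 FC was -1.15 (SE 0.45, FDR = 0.555). CDH13 lay at 332, 629, 465 and 1194 CPM in the control and at 1229, 1889, 1335 and 432 CPM in the pregnant GE, with 3 pregnant gilts above all controls, gilt 14 among them and a log2 FC of 0.90 (SE 0.51, FDR = 0.705). CDH11 ranged from 15.7 to 201 CPM in the control and from 29.9 to 107 CPM in the pregnant gilts (log2 FC -0.41, SE 0.70, FDR = 0.907). CDH3, listed in GE alone, was near the floor in most libraries, with 34.6, 3.34, 0.278 and 1.89 CPM in the control and 8.58, 6.94, 0.29 and 3.18 CPM in the pregnant gilts (log2 FC -1.08, SE 1.25, FDR = 0.857). The highest CDH11 and CDH3 values both came from control gilt 02, the library rich in fibroblast and smooth muscle markers.

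In the libraries labelled S, 1 of 6 members passed the threshold of an unadjusted p value below 0.0021, against 1.47% of 11532 genes (1.05% lower). CDH17 was at 99.2, 78.3 and 129 CPM in control gilts 02, 04 and 13 and at 0.809, 2.68 and 1.53 CPM in pregnant gilts 01, 05 and 14. The pregnant values rest on 1 to 8 reads a library, where 3 reads correspond to 0.919 to 2.43 CPM, and the groups lay far apart. The log2 FC was -5.78 with an SE of 0.44 (FDR = 0.022). The call was kept without each of the 6 gilts in turn (log2 FC -6.26 to -5.58, FDR 0.0258 to 0.136), including gilt 01, whose S library was rich in fibroblast markers. CDH17 per kb was 9.44%, 11.9% and 14.4% of CDH1 per kb in the control S and 0.225%, 0.141% and 0.206% in the pregnant S (exact permutation test, two-sided, p = 0.1, the smallest that 3 against 3 libraries allow).

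The remaining members in S did not pass the threshold. CDH1 was at 1194, 750 and 1011 CPM in control gilts 02, 04 and 13 and at 409, 2153 and 845 CPM in pregnant gilts 01, 05 and 14. Its lowest value was that of gilt 01, the S library with the fewest epithelial marker reads, and the pregnant range enclosed that of the control (log2 FC 0.21, SE 0.59, FDR = 0.938). CDH16 had 13.4, 6.14 and 4.03 CPM in the control and 4.85, 20.1 and 3.06 CPM in the pregnant gilts, which overlapped (log2 FC 0.29, SE 0.80, FDR = 0.935). Its share of CDH1 per kb was 1.11 ± 0.518% in the control and 1.18 ± 0.603% in the pregnant S (SD, n = 3 each; exact permutation test, two-sided, p = 0.8, with 0.1 the smallest possible).

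CDH13 was the second member of S whose groups did not overlap, where 17.6% of all genes did not. It had 375, 274 and 302 CPM in the control and 723, 942 and 399 CPM in the pregnant S (log2 FC 1.12, SE 0.37, FDR = 0.29). CDH11 was at 18.5, 21.04 and 32.2 CPM in the control and 163, 20.8 and 42.0 CPM in the pregnant S. Gilt 01 alone held the highest value, and the log2 FC of 1.63 (SE 0.73, FDR = 0.421) was 0.36 without it. CDH6 had 5.91, 139 and 28.9 CPM in the control and 8.90, 8.71 and 64.9 CPM in the pregnant gilts (log2 FC -1.05, SE 1.16, FDR = 0.795). The 10 fibroblast markers had a median log2 FC of 1.55 in S, where that of all genes was 0.08, and the 8 blood endothelial markers one of 1.44. Among the 3 listed markers of lymphatic endothelium, LYVE1 was called higher (log2 FC 4.51, FDR = 0.109), where 1.47% of all S genes were called. The LYVE1 call was lost without gilt 02 or 04. Of the 12 epithelial markers, KRT7 was called lower (log2 FC -3.14, FDR = 0.122), a call lost without gilt 01, 02, 13 or 14. Their part in the S values was not tested.

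**Figure D3:**
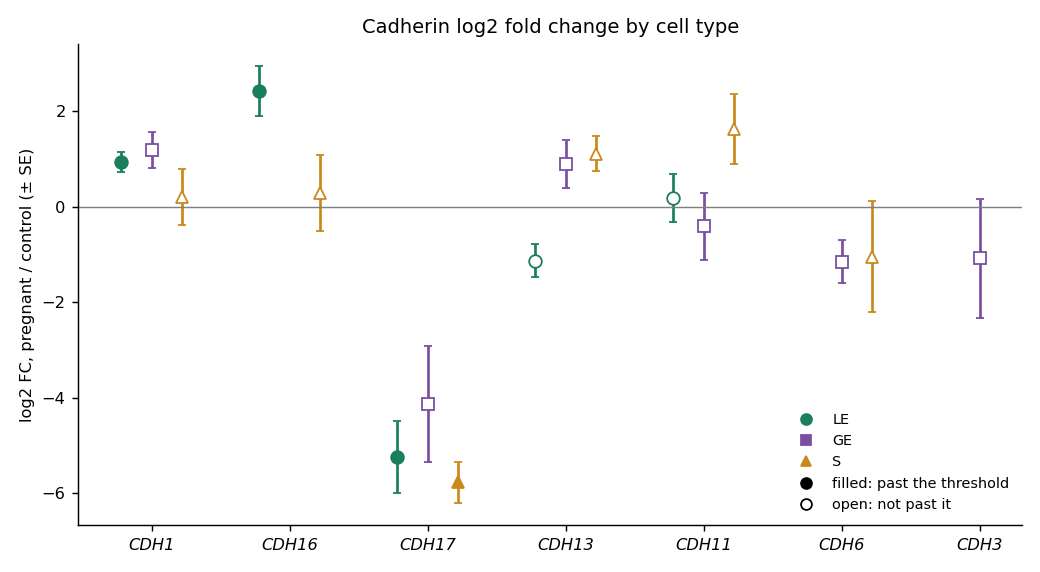
The log2 FC of pregnant over control gilts for each cadherin (y axis, bars are 1 SE) in LE (circles), GE (squares) and S (triangles), from edgeR; filled symbols passed the threshold of their cell type and open ones did not. CDH17 is lowest in every label, from -5.78 in S to -4.14 in GE, and CDH13 is at -1.13 in LE and at 0.90 and 1.12 in GE and S.

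Whether the response to pregnancy differed between the cell types was tested as an interaction, with all 22 libraries fitted together over the 10643 genes of all 3 tables and the gilt as a block. No member passed an FDR of 0.01 in any of the 3 interactions, in which 0.395% (LE against GE), 0.0188% (LE against S) and 0.0% (GE against S) of the genes passed. For the last of these, 0 genes were called by edgeR, 1054 had p values below 0.05 before adjustment and 26 were called by DESeq2. CDH13 came nearest, with a difference of log2 FCs of -1.88 between LE and GE (SE 0.53, FDR = 0.0736) and of -2.32 between LE and S (SE 0.58, FDR = 0.125). For CDH17 the difference was -2.57 between LE and GE (SE 1.15, FDR = 0.27) and 3.79 between GE and S (SE 1.35, FDR = 0.431). Both depended on the gilt block and were smaller without it, at -1.14 (FDR = 0.815) and 1.65 (FDR = 0.936). For CDH1 the difference was -0.26 between LE and GE (SE 0.47, FDR = 0.85) and 1.02 between LE and S (SE 0.53, FDR = 0.383). For CDH16, in a fit of the LE and S tables alone (10890 genes, 0.0% called, 1451 with p values below 0.05 before adjustment and 95 called by DESeq2), the LE response minus that of S was 1.80 (SE 0.92, FDR = 0.44). The differences in response seen for CDH1, CDH13 and CDH16 across labels did not pass this test, and the responses of CDH17 were not shown to be equal.

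Differences between cell types within the same gilts were read from the same fit. CDH13 was the only member called, and only in pregnant gilts, for LE against GE and for S against LE. In every one of the 8 gilts it was higher in GE than in LE. The pregnant gilts 01, 03, 05 and 14 had 1229, 1889, 1335 and 432 CPM in GE against 146, 104, 63.5 and 74.0 CPM in LE. The log2 difference of LE from GE was -3.50 in the pregnant gilts (SE 0.41, FDR = 0.000164), an 11.3-fold lower level, and was called without each gilt in turn. In this comparison 15.8% of all genes were called (7.87% lower in LE), and CDH13 was 1 of 4 members. In the control gilts the difference was -1.63 (SE 0.38, FDR = 0.0174) and was not called, where 1.84% of genes were called.

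S compared with LE gave a similar picture for CDH13. In the pregnant gilts 01, 05 and 14, S had 723, 942 and 399 CPM, each above the LE of the same gilt (log2 difference 2.89, SE 0.42, FDR = 0.00186), and 3.14% of all genes were called (2.32% higher in S). Without gilt 01 the log2 difference was 3.24 and its FDR 0.0101, just outside the threshold. In the control gilts it was 0.57 (SE 0.41, FDR = 0.826), and 0 of the 10643 genes were called between S and LE by edgeR there (692 had p values below 0.05 before adjustment, and DESeq2 called 5). Between S and GE, 0 genes were called in the control (1891 with p values below 0.05 before adjustment, 405 called by DESeq2) and 0 in the pregnant gilts (310 and 0), and CDH13 was lower in S by log2 differences of -1.06 (FDR = 0.196) and -0.62 (FDR = 0.9998).

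**Figure D4:**
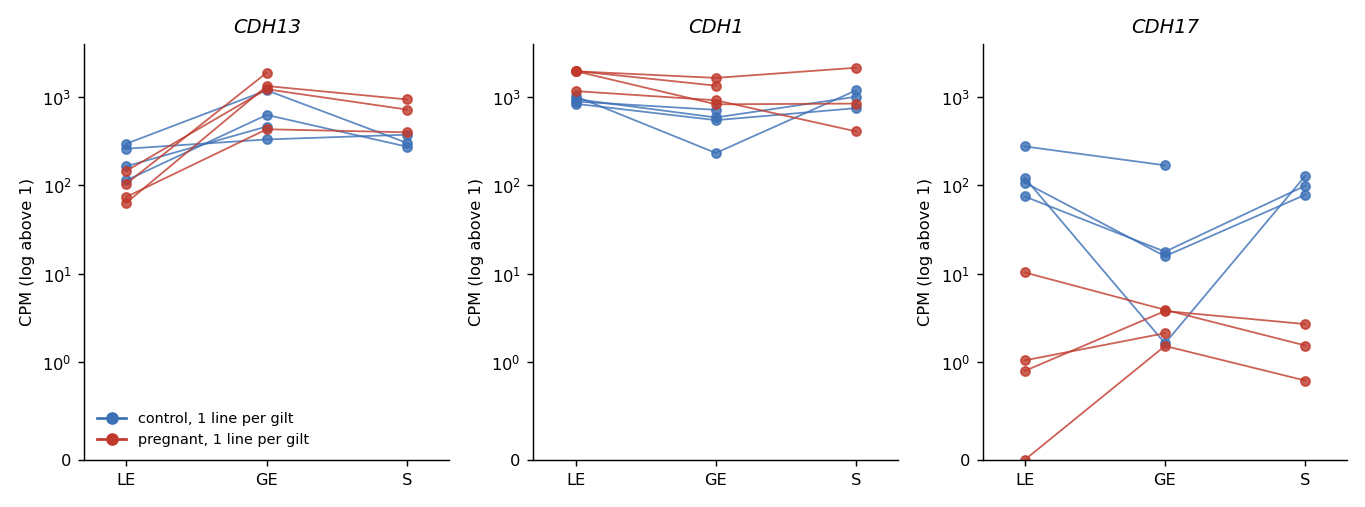
CDH13, CDH1 and CDH17 in CPM (linear below 1, logarithmic above it) in the LE, GE and S libraries of each gilt, with 1 line per gilt, control in blue and pregnant in red. Every line of CDH13 rises from LE to GE, and the red lines of CDH17 stay at or below 10.3 CPM in all labels.

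CDH17 and CDH16 also differed by cell type in some gilts, below the threshold. In the control gilts, CDH17 had 74.9, 108, 276 and 122 CPM in LE against 17.7, 15.7, 169 and 1.62 CPM in GE (gilts 02, 04, 06 and 13), lower in GE in all 4, with a log2 difference of 2.52 (SE 0.65, FDR = 0.026). In pregnant gilts it was -0.05 (SE 0.92, FDR = 0.975), at levels near the floor. Control S stood 2.77 above control GE (SE 0.73, FDR = 0.0651) and 0.25 above control LE (SE 0.61, FDR = 0.965). Without the gilt block, CDH17 of control LE stood 1.49 (FDR = 0.319) and that of control S 0.97 (FDR = 0.774) above control GE. CDH16 of pregnant gilts 01, 05 and 14 had 103, 31.1 and 27.2 CPM in LE against 4.85, 20.1 and 3.06 CPM in S. It was lower in S in all 3, by a log2 difference of -2.48 (SE 0.65, FDR = 0.0424) in the fit of LE and S, where 1.01% of genes were called.

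CDH1 and CDH11 did not pass the threshold between any pair of labels. For CDH1 the log2 difference of LE from GE was 0.87 in the control (SE 0.34, FDR = 0.109) and 0.62 in the pregnant gilts (SE 0.33, FDR = 0.179), and that of S from LE was 0.15 and -0.87 (FDR = 0.966 and 0.136). CDH11, which is known from mesenchymal cells, was not higher in S than in LE, with log2 differences of -1.25 in the control (SE 0.61, FDR = 0.771) and -0.12 in the pregnant gilts (SE 0.58, FDR = 0.92). CDH6 of S differed from GE by -1.48 in the control (SE 0.67, FDR = 0.327) and -0.80 in the pregnant gilts (SE 0.67, FDR = 0.9998), in a fit of the GE and S tables.

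Across the 22 libraries, the levels of 2 members followed the markers of a cell class. CDH1 rose with the summed epithelial markers (Pearson's r = 0.80 of log2 values, Spearman's rho = 0.70), and CDH11 with the fibroblast markers (r = 0.94, rho = 0.93). The lowest epithelial sums were those of control GE of gilt 02 (897 CPM, CDH1 at 233) and pregnant S of gilt 01 (1219 CPM, CDH1 at 409). Within LE, the sums of control (2670 to 3342 CPM) and pregnant gilts (2440 to 3197 CPM) overlapped, while the CDH1 levels did not. CDH11 also followed the smooth muscle and pericyte markers (r = 0.84, rho = 0.73) and, less closely, those of blood endothelium (r = 0.63, rho = 0.50). CDH13 did not rise with blood endothelial markers (r = -0.38, rho = -0.41), although T-cadherin is known from vessels, and CDH17 was only loosely related to the epithelial markers (r = 0.23, rho = 0.29). The libraries share gilts and group, and the marker sums share the depth of each library, so that these coefficients are descriptions.

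**Figure D5:**
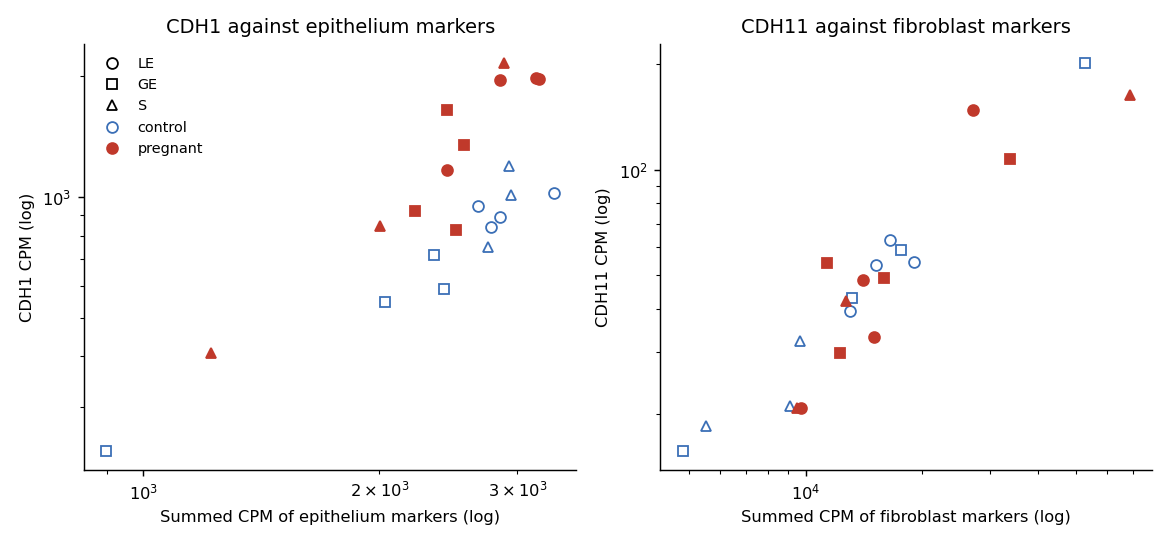
CDH1 against the summed epithelial markers (left) and CDH11 against the summed fibroblast markers (right), both in CPM on log axes, for 22 libraries; open symbols are control and filled ones pregnant, and shapes give the label. The control GE library of gilt 02 lies at 897 CPM of epithelial markers and 233 CPM of CDH1, and at 52700 CPM of fibroblast markers and 201 CPM of CDH11.

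The genes most like each of the 3 main members were listed by Pearson's r of log2 CPM across libraries. For CDH1 over 22 libraries these were TMEM243 (0.915), EPHA1 (0.911), KLF5 (0.907), ICA1 (0.907) and MET (0.903). For CDH17 they were HPGD (0.952), the prostaglandin-degrading enzyme, then KCTD1 (0.948), DEFB1 (0.94), an antimicrobial peptide, GARNL3 (0.939) and ZNF608 (0.937). For CDH16 over the 14 LE and S libraries they were CLDN4 (0.939), a tight junction claudin, GK (0.938), LOC100154423 (0.929), SLC5A6 (0.928) and COPZ1 (0.927). All 3 sets were picked as the highest of 10642 or 10889 coefficients, so that they are descriptions only.

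Partners of the cadherins at the junction were read as lists. Of 18 genes of the catenins and the adherens junction plaque, 15 were listed in LE, of which 1 was called higher and 0 lower, where 10.0% of all LE genes were called, with a median log2 FC of 0.40 against 0.01 for all genes. The called gene was PKP4, a plakophilin of the p120 catenin family, which rose from 53.2 to 63.1 CPM in the control to 88.7 to 132 CPM in the pregnant LE (log2 FC 0.89, SE 0.17, FDR = 0.00495). Its call was lost without any one of gilts 02, 04, 05, 06 or 13. CTNNB1 (β-catenin, which binds the CDH1 tail) had 409 to 477 CPM in the control and 519 to 809 CPM in the pregnant LE (log2 FC 0.48, FDR = 0.0786). CTNND1 (p120 catenin, which stabilizes cadherins at the membrane) had a log2 FC of 0.40 (FDR = 0.167), CTNNA1 (α-catenin, the link to actin) one of -0.11 (FDR = 0.659) and JUP (plakoglobin) one of 0.02 (FDR = 0.947). In GE 0 of 16 and in S 0 of 14 genes of this list were called. Of 12 desmosomal cadherins and plaque genes, 6 were listed in each table and 0 were called in any of them, with median log2 FCs of -0.72 in LE, 0.35 in GE and -0.44 in S.

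Other genes with cadherin domains were called in both directions in LE. Of 42 on the list, 17 were listed in LE, with 2 called higher and 4 lower (median log2 FC -0.18), where 6.33% of all genes were called higher and 3.71% lower. CDH20, a classical type cadherin, rose from 8.86 to 33.7 CPM to 88.4 to 204 CPM (log2 FC 2.72, SE 0.43, FDR = 0.00181), and PCDH19, a protocadherin, from 55.7 to 69.3 CPM to 109 to 225 CPM (log2 FC 1.43, SE 0.23, FDR = 0.00215). FAT1, a giant cadherin that acts in cell polarity, fell from 739 to 894 CPM to 267 to 370 CPM (log2 FC -1.40, SE 0.17, FDR = 0.000431). The others that fell were CDHR1, a photoreceptor cadherin (log2 FC -3.67, FDR = 0.00775), CELSR2, of planar polarity (log2 FC -1.24, FDR = 0.00469), and the protocadherin PCDH1 (log2 FC -0.89, FDR = 0.00323). The call of CDHR1 was kept only without gilt 14, that of CELSR2 was lost without gilt 02, 04, 05, 06 or 13, and that of PCDH1 without gilt 02, 06 or 13. In GE, where 0.694% of all genes were called, CDHR1 alone of 19 was called, lower (log2 FC -1.70, FDR = 0.254), a call lost without any one of gilts 01, 02, 04, 05 or 14. In S, 0 of 20 were called.

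Among genes for shedding and turnover of cadherins (13 on the list, all listed in LE), 1 fell and 0 rose in LE, where 3.71% of all genes were called lower and 6.33% higher. It was EXOC4, a subunit of the exocyst that delivers vesicles to the lateral membrane, which went from 156 to 170 CPM to 77.4 to 96.2 CPM (log2 FC -0.88, SE 0.14, FDR = 0.00199), a call lost without gilt 04. In GE 0 of 12 and in S 0 of 13 of these were called.

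Transcription factors known from epithelial-mesenchymal transition, several of which bind the E-box shown above for CDH1, were read in the same way. In LE 14 of 17 were listed, 1 called higher and 1 lower, where 10.0% of all genes were called, with a median log2 FC of 0.28. OVOL1, an epithelial zinc finger repressor, rose from 5.22 to 10.6 CPM to 20.3 to 29.0 CPM (log2 FC 1.65, SE 0.30, FDR = 0.00405), a call lost without any one of gilts 04, 05 or 06. GRHL2, a grainyhead factor known to activate CDH1, fell from 75.5 to 93.8 CPM to 31.7 to 43.1 CPM (log2 FC -1.22, SE 0.17, FDR = 0.000843). The CDH1 repressors SNAI2 (log2 FC 0.37, FDR = 0.457), ZEB1 (-0.22, FDR = 0.475) and ZEB2 (-0.50, FDR = 0.228) and the epithelial OVOL2 (0.65, FDR = 0.507) were not called in LE. In GE 0 of 14 and in S 0 of 11 were called, where 0.694% and 1.47% of all genes were.

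A short list of transcription factors known for CDH16 or CDH17 was also read. Of these PAX2, a factor of kidney and reproductive tract, was at 335 to 406 CPM in the control LE and 9.34 to 79.0 CPM in the pregnant LE (log2 FC -3.28, SE 0.49, FDR = 0.00126). Lower calls made up 3.71% of all LE genes. PAX2 also fell in S, from 340.5 ± 57.9 CPM to 72.1 ± 30 CPM (SD, n = 3 each, log2 FC -2.23, SE 0.38, FDR = 0.0995). This S call, where 1.05% of all genes were called lower, was lost without gilt 02 or gilt 13. PAX2 was not called in GE (log2 FC -0.51, FDR = 0.851).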

How the data were processed

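The 22 libraries were made by the authors with the Ovation SoLo kit and sequenced as single reads. Per the paper's methods, reads were clipped and mapped with Hisat2 to Sscrofa11.1, PCR duplicates were recognized by random adapter bases and removed, low genes were filtered by CPM, and edgeR was used. The deposited values are raw read counts per NCBI gene, with 1 table for each cell type. How reads were counted, with or without strand, and the filter level are not given in the sources used here.

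Counts were fitted per cell type over all listed genes by edgeR 4.0.16 under R 4.3.3, using TMM factors and the quasi-likelihood F test, and the SE was taken from the log2 FC and F. Following the study, a Benjamini-Hochberg FDR below 0.01 was required for LE, and for GE and S a p value below 0.0021 before adjustment. Cell types and interactions were compared in joint fits with the gilt as fixed block (FDR below 0.01). Libraries with the same number are from the same gilt by the labels, and their deviations from the group means correlated with a median r of 0.257 (LE and GE), 0.314 (LE and S) and 0.468 (GE and S). CPM used TMM-scaled library sizes. With totals of 893912 to 4020796 counts, 3 counts (the floor) equal 0.69 to 3.50 CPM; this covers counting error only.

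Named genes were all members, the genes of the pathway lists that were called in a cell type, and catenins and transcription factors picked by name. A further item of these lists is not reported here. Members and lists were chosen with earlier results of these data known. Alternatives were DESeq2 1.42.0 size factors or Wald test, library size alone, filterByExpr, an FDR of 0.05, the 6 gilts with an S library, no block or a random block (limma 3.58.1), and leaving out each gilt. Shares of CDH1 were added after the data had been seen. The fits were tested on simulated counts with 200 changed genes, each with a log2 change of 2 up or down. At these thresholds 160 of them were recovered in LE, 149 in GE and 112 in S. In the joint fit, 151 of 200 were recovered for LE against GE in pregnant gilts and 96 of 200 for the interaction of LE with GE. Smaller changes, such as that of CDH1 in LE, were not simulated. False calls numbered 1 in LE, 29 in GE and 23 in S. Coordinates, exon lengths and sequences were read from the RefSeq genome and annotation of Sscrofa11.1 with pysam 0.24.0.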

Additional observations from a re-analysis of the deposited data

Results flagged for a closer look

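In 4 of the 22 combinations of a member and a group of 4 libraries, 1 library lay far from the other 3 by Dixon's gap test (critical value 0.829). For normally distributed values, chance alone flags about 1 of 20 groups. The test was run on CPM without a log, so that this rate need not hold here and no excess was shown. CDH1 in pregnant LE was low in gilt 01, at 1169.8 CPM, where the other 3 libraries had 1962 to 1977 CPM. This is the shallowest library. Among the LE libraries it also had the lowest sum of epithelial markers (2440 CPM). Its fibroblast (27146 CPM) and smooth muscle and pericyte (6229 CPM) sums were the highest. Their part in the low value was not tested. CDH17 in control GE was high in gilt 06, at 168.8 CPM, against 1.62 to 17.7 CPM in the others. CDH17 in pregnant LE was high in gilt 14, at 10.3 CPM, against 0.0 to 1.04 CPM. CDH3 in control GE was high in gilt 02, at 34.6 CPM, against 0.278 to 3.34 CPM, and this library also had the most smooth muscle and pericyte marker reads (9913 CPM).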

How the results depend on the processing

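Of the members, CDH17 in LE and S kept its call under every alternative fit. In S this call rests on the unadjusted p value, and without 1 gilt the FDR was 0.0258 to 0.136. Its share of CDH1 in S gave p = 0.1 (exact permutation test), the smallest possible there. In LE, where 3 members were called, 1 was called with library size alone (CDH1 at FDR 0.0204, CDH16 at 0.0105), 1 with only the 6 gilts with an S library (0.067 and 0.0681), and 1 to 2 without 1 gilt. Library size alone moved the median log2 FC of all LE genes to -0.14 and split the calls into 582 higher and 570 lower genes, against 722 and 424. In GE, DESeq2 called 1 member and leaving out 1 gilt 0 to 1. Between LE and GE of controls, 2 members (CDH13 and CDH17) were called at an FDR of 0.05, by DESeq2 and with a random block. Between S and LE of pregnant gilts, 2 were called at an FDR of 0.05 and by DESeq2, and 0 to 2 without 1 gilt. DESeq2 called 1 member each between S and GE of controls and for the response of LE against S (CDH13). The response of LE against GE was called for 11 higher and 37 lower genes with library size alone, against 16 and 26. Counts of called genes changed by more than 1.5 times with DESeq2 (2182 in LE, 241 in GE, 512 in S), at an FDR of 0.05 (2557, 2 and 29) and in the 6 gilts (435 in LE, 35 in GE).

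Pairing by gilt was tested with no block and with a random block. Without a block, CDH17 of pregnant LE against GE was at a log2 difference of 0.35 and CDH17 of control S against LE at -0.52 (random block -0.12). CDH11 without a block was at 0.04 (pregnant LE against GE), 0.21 (pregnant S against LE) and 0.25 (pregnant S against GE), and with a random block at 0.04 (control LE against GE). In interactions, the random block gave -0.34 for CDH11 (LE against GE; -0.02 with library size alone) and -0.10 for CDH17 (LE against S). None of these was called. Beyond the calls named, the block changed no call of a member. Over all genes, 196 (control LE against GE), 1680 (pregnant), 334 (pregnant S against LE) and 42 (response of LE against GE) were called with the fixed block, 16, 1018, 95 and 0 without it, and 514, 1783, 525 and 41 with a random block.

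Leaving out 1 gilt turned the sign of further uncalled values. For pregnant against control these ranged, in LE, from -0.61 to 0.47 for CDH11 and from -0.04 to 0.07 for JUP (-0.13 with library size alone), in GE from -0.84 to 0.62 for CDH11 and from -1.50 to 1.41 for CDH3, and in S from -0.66 to 0.58 for CDH1, from -1.03 to 0.90 for CDH16, from -2.73 to 0.68 for CDH6 and from -0.08 to 0.70 for EPCAM. Between cell types they ranged from -0.67 to 0.17 for CDH1 (pregnant S against GE), from -0.77 to 0.61, -0.44 to 0.11 and -0.21 to 0.12 for CDH11 (control and pregnant LE against GE, pregnant S against LE), and from -1.79 to 0.48, 0.00 (below 0 before rounding) to 0.54 and -2.12 to 1.3 for CDH17 (pregnant LE against GE, control and pregnant S against LE). For interactions the ranges were -0.51 to 0.09 for CDH1 and -0.76 to 0.61 for CDH11 (LE against GE), -1.05 to 2.37 for CDH17 (LE against S) and -1.55 to 0.21 for CDH6 (GE against S). The causes were not tested. Depth limits CDH3 and the pregnant CDH17 values, which rest on few reads.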
